A study of Mus musculus with 64 samples.

Results

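The 10 genes Apoe, Trem2, Tyrobp, Lpl, Cst7, Itgax, Clec7a, Spp1, Gpnmb and Igf1 belong to the transcriptional programme known as disease-associated microglia. They were taken by symbol as 10 of the 25239 gene rows of a batch-corrected count table of sorted mouse retinal microglia, and their levels are given here in CPM, the usual unit of a gene's counts scaled to the total count of its library. Each library came from 600 cells of a single retina, sorted for a high tdTomato signal and against a dead-cell dye, and was amplified by 16 PCR cycles. All mice, controls included, were Cx3cr1CreER:R26-tdTomato heterozygotes on C57BL/6J that had received tamoxifen eye drops, so that the labelled cells are those in which the Cx3cr1 promoter drove Cre at that time. Mice aged 3, 9 or 18 months were either naive, meaning that their eyes were not injected, or were taken 12 or 28 days after 1e10 genome copies of an AAV2 vector in 2 uL were placed in the vitreous. The vector had a CMV promoter, no transgene and a short inhibitory oligonucleotide sequence against TLR9. No library came from an eye injected without vector, so the vector and the injection cannot be told apart.

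In the 62 libraries used, the naive groups held 4 females and 3 males at 3 months, 3 and 2 at 9 months, and 3 and 4 at 18 months. The day 12 groups held 4 females and 4 males at 3 months, 3 and 4 at 9 months, and 4 and 3 at 18 months. The day 28 groups held 4 females and 3 males at 3 months, 4 and 3 at 9 months, and 3 and 4 at 18 months. Of 64 libraries, 18m_Female_D28 replicate 1 was left out by the rule that chose the genes and 9m_Male_D28 replicate 1 was absent from the batch-corrected table. These were the 2 libraries whose sex-linked genes went against their label.

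Microglia at rest express a set of homeostatic genes such as the purinergic receptor P2ry12. In neurodegeneration, demyelination and ageing a share of them lowers that set and raises genes of lipid handling, phagocytosis and lysosomes. The surface receptor TREM2 binds lipids and lipoproteins, among them APOE, and signals through the adaptor TYROBP, and in brain disease models the later steps of this programme depend on TREM2. Of the other members, LPL hydrolyses triglycerides, cystatin F (Cst7) inhibits lysosomal cysteine proteases, CD11c (Itgax) is an integrin subunit and dectin-1 (Clec7a) is a receptor for beta-glucans. Osteopontin (Spp1) and IGF1 are secreted, and GPNMB is a glycoprotein of lysosomes and the cell surface.

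The libraries held 1468478 to 9836173 counts, with a median of 4188992, and 3 counts corresponded to between 0.305 and 2.043 CPM depending on the library. The microglial markers P2ry12, Cx3cr1, Tmem119 and Sall1 were present in every library, and the lowest P2ry12 level was 606.6 CPM. Summed T cell marker genes (6 of 7 listed in the table) had a median of 0.7601 CPM in naive, 96.57 CPM in day 12 and 66.2 CPM in day 28 libraries, with a range of 0 to 303.4 CPM. The 5 monocyte markers summed to a median of 32.92, 53.63 and 7.31 CPM in the same order and reached 957.5 CPM in 18m_Female_D12 replicate 4. The 4 markers of border macrophages had medians of 167.7, 4.942 and 5.745 CPM, and the 6 photoreceptor markers 1719, 732.9 and 1356 CPM. The part of these other cells in the results below was not tested, and in bulk libraries fewer cells of a kind and less RNA per cell cannot be told apart.

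Some libraries stood apart from the rest of their group, and results that rest on them are given with and without them. In 3 day 12 libraries the 14 homeostatic genes summed to 81090 CPM (9m_Male_D12 replicate 2), 83820 CPM (18m_Female_D12 replicate 1) and 78680 CPM (18m_Female_D12 replicate 2), whereas all other day 12 libraries lay between 17760 and 50960 CPM. The naive library 9m_Female_Naive replicate 1 had the highest naive levels of Apoe (19270 CPM), Itgax (154.9), Spp1 (352.5), Gpnmb (948.9) and Igf1 (129.5). The naive library 18m_Female_Naive replicate 1 had 1179 CPM of Cst7, 904.8 CPM of Gpnmb and the highest neutrophil marker sum, 32.24 CPM. All the libraries named above were sorted on collection day 1. The other libraries of 9m_Female_Naive, 18m_Female_Naive and 18m_Female_D12 were all from collection day 2, so a collection-day difference cannot be told apart there. In 9m_Male_D12, replicates 1 and 3 were also from collection day 1 and did not stand apart. Both naive libraries were singled out for high levels of members. Leaving them out was bound to raise the differences of those members from naive, so the values without them are no separate support. The labels gave 18m_Male_D28 replicate 4 both a day 12 and a day 28 entry, and it was kept at day 28.

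Promoter sequences are shown for the members in which a searched motif was found. No searched motif was in all 6 of the 10 genes that rose at 3 months, and a link between motifs and changes was not tested. RefSeq windows on GRCm38.p6, from 250 bases before to 50 bases after each start, were on hand for 8 of the 10 members, all but Lpl and Tyrobp. Each stretch below runs 100 bases on the plus strand, 5′ to 3′, from base -80 to base 20 around the start and, in Spp1, from base -180 to -81, and the capitals mark the AP-1 motif TGANTCA in all except Spp1. In the Spp1 stretch the first capitals mark the interferon-stimulated response element, searched as TTTC and TTTC with any 2 bases between, and the second the PU.1 element GAGGAAGT.
Cst7, chr2:150570335-150570434: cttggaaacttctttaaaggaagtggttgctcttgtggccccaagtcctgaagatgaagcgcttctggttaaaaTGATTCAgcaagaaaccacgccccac
Itgax, chr7:128129470-128129569: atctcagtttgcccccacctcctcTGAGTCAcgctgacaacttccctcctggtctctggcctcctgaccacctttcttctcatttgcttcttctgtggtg
Gpnmb, chr6:49036438-49036537: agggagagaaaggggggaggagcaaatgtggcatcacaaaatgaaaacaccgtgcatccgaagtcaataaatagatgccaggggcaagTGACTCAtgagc
Igf1, chr10:87861031-87861130: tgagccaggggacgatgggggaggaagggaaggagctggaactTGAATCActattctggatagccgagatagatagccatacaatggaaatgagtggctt
Trem2, chr17:48346321-48346420: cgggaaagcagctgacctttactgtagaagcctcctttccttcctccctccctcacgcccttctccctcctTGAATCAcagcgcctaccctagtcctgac
Spp1, chr5:104434931-104435030: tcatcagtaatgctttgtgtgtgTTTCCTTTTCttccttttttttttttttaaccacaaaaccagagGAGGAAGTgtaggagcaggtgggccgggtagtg

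The AP-1 motif was found, on either strand, in 5 of the 8 members and in 8.97% of the 27025 genes of the table, or 7.81% of its 32851 windows. Relative to the start it began at base -6 in Cst7, -56 in Itgax, 9 in Gpnmb, -37 in Igf1 and -9 in Trem2. The PU.1 element began at base -113 in Spp1 alone, against 3.69% of all genes, and the interferon-stimulated response element at base -157, again in Spp1 alone, against 3.99%. The E-box CACGTG (8.09% of genes) and the gamma-activated site TTCNNNGAA (9.55%) were in none of the 8. Apoe and Clec7a held none of the 5 motifs. A match of letters is no measurement of binding.

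At 3 months 6 of the 10 genes rose by day 12 and the same 6 were higher than naive on day 28: Apoe, Cst7, Itgax, Spp1, Gpnmb and Igf1. A gene was called changed between days where edgeR's glmTreat test, which asks for a log2 fold change beyond 1 in either direction, gave a Benjamini-Hochberg adjusted p below 0.05 over all genes of the fit. This rule called 4.64% of 12002 genes on day 12 (3.19% as higher) and 1% on day 28 (0.825% as higher). Trem2, Tyrobp, Lpl and Clec7a were not called on either day. DESeq2 called 4 of the 6 on day 12, without Spp1 and Igf1, and all 6 on day 28. A single fit of all 62 libraries called 2 on day 12, Cst7 and Itgax, and 4 on day 28. The naive and injected libraries did not overlap for 3 members on day 12 (7.59% of genes) and for all 6 on day 28 (2.99%). The libraries are single retinas, and the p-values measure the spread between retinas left after the authors' adjustment for collection day. The fits had no batch term.

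Apoe, the lipoprotein component that delivers lipid to cells and binds TREM2, lay at 4204 to 10670 CPM in the 7 naive libraries of 3 months, with a median of 5873. It lay at 14550 to 33000 CPM on day 12 (median 21530, n = 8) and at 17700 to 32950 CPM on day 28 (median 26480, n = 7). Every injected library of that age was above every naive library. The log2 fold change was 1.98 ± 0.19 (SE) on day 12 (edgeR glmTreat, adjusted p = 6.6e-05) and 2.12 ± 0.20 on day 28 (adjusted p = 5.58e-05).

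Cst7, which encodes the protease inhibitor cystatin F, lay at 54.94 to 176.2 CPM in naive libraries (median 125.7). On day 12 it lay at 801 to 1641 CPM (median 1340) and on day 28 at 472.1 to 1198 CPM (median 899.8). The injected ranges were apart from the naive range on both days. Relative to naive the log2 change was 3.54 ± 0.22 on day 12 (edgeR glmTreat, adjusted p = 3.05e-11) and 3.00 ± 0.22 on day 28 (adjusted p = 1.27e-08).

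Itgax, the CD11c integrin subunit, was the 1 member called between the injected days at this age. It lay at 7.33 to 15.02 CPM in naive libraries (median 12.69), at 71.95 to 260.8 CPM on day 12 (median 115.3) and at 28.43 to 50.61 CPM on day 28 (median 37.73). The 3 ranges did not overlap, and day 12 and day 28 were apart in 2.27% of genes. Its log2 fold change was 3.61 ± 0.22 on day 12 (edgeR glmTreat, adjusted p = 2.48e-11) and 1.87 ± 0.22 on day 28 (adjusted p = 0.00436). Between the injected days Itgax fell by 1.73 ± 0.20 on the log2 scale (adjusted p = 0.0229) in a comparison that called 0.392% of genes. That last call was lost when any 1 of 6 libraries was left out, namely 3m_Female_D12 replicates 1 and 3, 3m_Male_D12 replicate 2, 3m_Female_D28 replicate 2, or 3m_Male_D28 replicates 1 and 3. The value then lay between -1.73 and -1.57, with adjusted p from 0.0512 to 0.107.

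Spp1, the secreted phosphoprotein osteopontin, was low and spread in naive libraries, at 3.618 to 69.42 CPM (median 21.07). It lay at 34 to 460.5 CPM on day 12 (median 158.9) and at 258.9 to 2378 CPM on day 28 (median 510.9). The day 12 range overlapped the naive range and the day 28 range did not. The log2 fold change was 2.77 ± 0.50 on day 12 (edgeR glmTreat, adjusted p = 0.00321) and 5.01 ± 0.56 on day 28 (adjusted p = 2.32e-06). The difference of 2.24 ± 0.45 between the days did not pass the test (adjusted p = 0.157).

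Gpnmb, a glycoprotein of lysosomes and the cell surface, showed the same order of medians as Spp1. It lay at 4.289 to 61.54 CPM in naive libraries (median 16.28), at 50.21 to 364 CPM on day 12 (median 94.66) and at 226.2 to 562.2 CPM on day 28 (median 305.3). On day 12 its range overlapped the naive range through 1 naive library, 3m_Female_Naive replicate 4, and on day 28 it did not overlap. Its log2 fold change was 2.77 ± 0.43 on day 12 (edgeR glmTreat, adjusted p = 0.000722) and 4.34 ± 0.46 on day 28 (adjusted p = 2.2e-06), with 1.57 ± 0.38 between the days (adjusted p = 0.992).

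Igf1, a secreted growth factor, lay at 5.243 to 21.29 CPM in naive libraries (median 11.97), at 11.03 to 84.98 CPM on day 12 (median 44.37) and at 58.12 to 153 CPM on day 28 (median 88.24). The naive and day 12 ranges overlapped through the day 12 library at 11.03 CPM, and every day 28 library was above every naive one. Relative to naive the log2 change was 1.93 ± 0.32 on day 12 (edgeR glmTreat, adjusted p = 0.0154) and 3.08 ± 0.33 on day 28 (adjusted p = 1.19e-05). The day 12 call was lost without 3m_Male_Naive replicate 1 (1.83, adjusted p = 0.0572), without 3m_Male_Naive replicate 3 (1.83, adjusted p = 0.0518) and without 3m_Male_D12 replicate 1 (1.66, adjusted p = 0.0742).

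The receptor and its adaptor did not follow these 6 genes. Trem2 lay at 1850 to 2584 CPM in naive libraries of 3 months (median 2283), at 1320 to 2147 CPM on day 12 (median 1564) and at 2014 to 2665 CPM on day 28 (median 2500), and all 3 ranges overlapped. Its log2 differences from naive were -0.37 ± 0.13 and 0.25 ± 0.13. Tyrobp had medians of 4578, 5483 and 6989 CPM, with a naive range of 1918 to 6218 CPM that overlapped both injected ranges, and log2 differences of 0.45 ± 0.16 and 0.77 ± 0.16. Clec7a, the dectin-1 receptor, lay at 177.6 to 247.6 CPM in naive libraries and had log2 differences of 0.60 ± 0.13 and 0.28 ± 0.13. Lpl, the lipase, lay at 33.36 to 107.7 CPM in naive libraries and had log2 differences of -0.59 ± 0.26 and -0.56 ± 0.27. For these 4 genes the glmTreat adjusted p was 1 on both days.

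**Figure D1:**
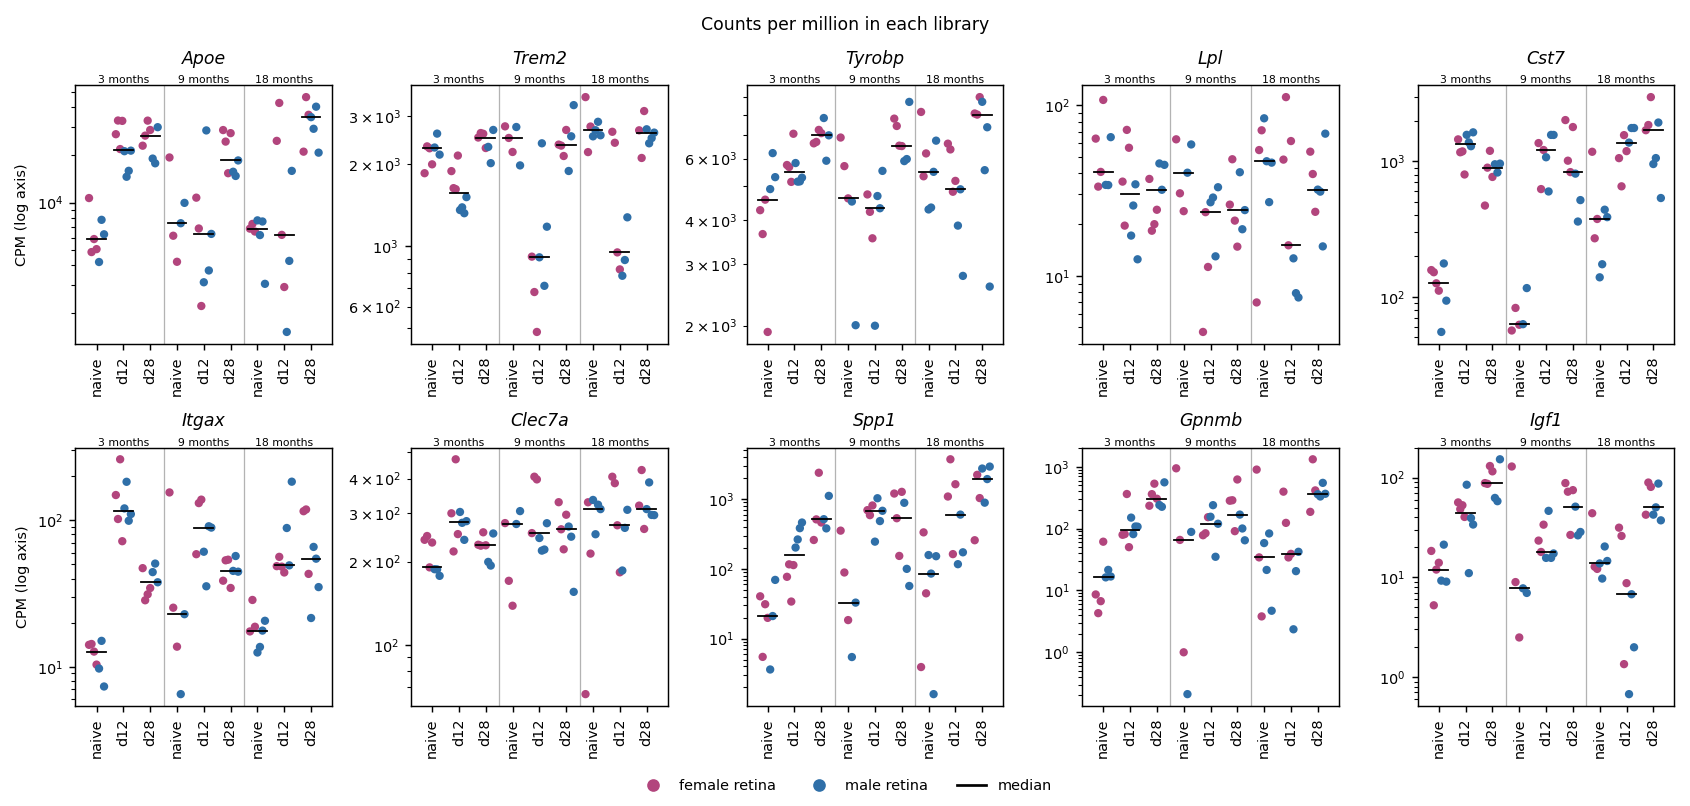
CPM of each of the 10 genes in each of the 62 libraries on a log axis, by age and day (pink female, blue male, black line the median). The 1 library in which Igf1 had no count (18m_Male_D12 replicate 1) is drawn below the lowest positive value. At 3 months Apoe, Cst7 and Itgax of all injected libraries sit above all naive ones, whereas Apoe on day 12 spreads from 1518 to 42630 CPM at 18 months.

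No member was called between males and females by edgeR's quasi-likelihood test, and DESeq2 called 2 member results. Day 12 at 3 months was called in females for Apoe, Cst7, Itgax and Gpnmb (2.37% of genes called) and in males for Cst7, Itgax, Spp1 and Gpnmb (3.21%). Day 28 was called for Apoe, Cst7, Spp1, Gpnmb and Igf1 in females (0.4%) and for these and Itgax in males (0.617%). DESeq2 called 3 and 2 of the 4 on day 12 in females and males, and all 5 and 3 of the 6 on day 28. The day 12 call of Gpnmb was lost without any one of 4 libraries in females and of 6 in males, and that of Spp1 in males without 3m_Male_Naive replicate 1 or 2 (3.01 and 3.35, edgeR glmTreat, adjusted p = 0.0869 and 0.0857). On day 28 in males the calls of Apoe (1.66 to 1.99, adjusted p 0.12 to 0.402) and Igf1 (2.23 or more, adjusted p 0.0902 to 0.225) were lost without 3m_Male_Naive replicate 1 or 3 or 3m_Male_D28 replicate 3. That of Itgax (1.92 to 2.11, adjusted p 0.0819 to 0.234) was lost without 3m_Male_Naive replicate 1 or 3 or 3m_Male_D28 replicate 1 or 2. The 3 members with an unadjusted p below 0.05 between the sexes on day 12 at 3 months were Spp1, at 34 to 116 CPM in females and 201.9 to 460.5 CPM in males, Lpl, at 19.69 to 71.83 CPM in females and 12.49 to 34.42 CPM in males, and Apoe, at 21780 to 33000 CPM in females and 14550 to 21280 CPM in males. Male against female was 2.00 ± 0.63 for Spp1 (edgeR's quasi-likelihood test, adjusted p = 0.354), -0.92 ± 0.36 for Lpl (adjusted p = 0.504) and -0.59 ± 0.25 for Apoe (adjusted p = 0.549). Over the 9 comparisons of males with females 20 member results had an unadjusted p below 0.05 by that test and none an adjusted p below 0.1. Over the 6 interactions of sex and day no member was called by either tool and 12 member results had an unadjusted p below 0.05. The share of all genes called was at most 0.1% in each of these 15 comparisons, with 0.0583% and 0.00809% for the interaction on day 12 at 3 and 9 months, and 0.075%, 0.0485% and 0.0504% between naive males and females at 3, 9 and 18 months.

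At 9 months, 2 members were called on day 12 among 3.93% of genes, Cst7 and Spp1, both higher (2.83% of genes were called higher). Cst7 in the 5 naive libraries was 56.32, 62.09, 62.71, 82.69 and 115.9 CPM. It lay at 600 to 1571 CPM on day 12 (median 1215) and at 359.7 to 2022 CPM on day 28 (median 834.1), above all naive libraries on both days, where 5.1% and 3.45% of genes had ranges apart. The log2 fold change was 3.94 ± 0.40 on day 12 (edgeR glmTreat, adjusted p = 4.61e-06) and 3.63 ± 0.39 on day 28 (adjusted p = 6.2e-05), where Cst7 was the 1 member called among 0.752% of genes (0.696% as higher).

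Spp1 in the naive libraries of 9 months was 5.453, 18.45, 32.83, 88.66 and 352.5 CPM, against 245.2 to 1026 CPM on day 12 (median 678.5) and 56.83 to 1267 CPM on day 28 (median 530.7). The ranges overlapped through the naive library of 352.5 CPM and, on day 28, also through the one of 88.66 CPM. Its log2 fold change was 3.64 ± 0.76 on day 12 (edgeR glmTreat, adjusted p = 0.0109) and 3.35 ± 0.75 on day 28 (adjusted p = 0.0665, not called). The day 12 call was lost without 9m_Male_Naive replicate 1 (3.29, adjusted p = 0.104). The day 28 difference was called without 9m_Female_Naive replicate 1 (4.07, adjusted p = 0.008), and also without 9m_Female_D28 replicate 3 (3.53, adjusted p = 0.0418), 9m_Male_D28 replicate 3 (3.57, adjusted p = 0.0471) or 9m_Male_D28 replicate 4 (3.60, adjusted p = 0.0387).

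Itgax, Igf1 and Gpnmb at 9 months turned on the same naive library. It had the highest naive level of each, so leaving it out was bound to raise each difference. Itgax was 6.501, 13.71, 22.84, 25.3 and 154.9 CPM in naive libraries, 35.42 to 138.3 CPM on day 12 and 34.5 to 57 CPM on day 28. With the naive library of 154.9 CPM the day 12 difference was 1.52 ± 0.45 (edgeR glmTreat, adjusted p = 0.394), and without it 2.34 ± 0.35 (adjusted p = 0.00265). Igf1 was 2.494, 6.978, 7.76, 8.966 and 129.5 CPM in naive libraries and 26.4 to 88.28 CPM on day 28. Its day 28 difference was 1.49 ± 0.59 (adjusted p = 1) with the library of 129.5 CPM and 2.94 ± 0.42 (adjusted p = 0.00192) without it. Gpnmb was 0.2097, 0.9974, 65.75, 88.65 and 948.9 CPM in naive libraries, 35.08 to 240.2 CPM on day 12 and 64.84 to 625.5 CPM on day 28. Its differences were -0.01 ± 0.86 and 0.77 ± 0.85 with the library of 948.9 CPM, and 1.60 ± 0.76 (adjusted p = 0.678) and 2.38 ± 0.79 (adjusted p = 0.577) without it, and none of the 4 was called.

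Apoe was not called on day 12 at 9 months. It was 4218, 6163, 7396, 9946 and 19270 CPM in naive libraries and lay at 2215 to 28570 CPM on day 12 (median 6330), with a log2 difference of -0.07 ± 0.50. On day 28 it lay at 14720 to 28720 CPM (median 18450), with every library above every naive one but that of 19270 CPM, and the difference of 1.22 ± 0.52 was not called (edgeR glmTreat, adjusted p = 1). Trem2 lay at 1976 to 2747 CPM in naive, 484.7 to 2381 CPM in day 12 and 1885 to 3286 CPM in day 28 libraries, and its day 12 difference of -1.31 ± 0.30 was not called (adjusted p = 0.477). The only day 12 library above 1976 CPM was 9m_Male_D12 replicate 2, which also had the 28570 CPM of Apoe. Lpl had a day 12 difference of -1.30 ± 0.36 (adjusted p = 0.593), and the differences of Tyrobp and Clec7a were within 1 log2 unit on both days. No member was called between day 28 and day 12 at 9 months (0.404% of genes were called), by glmTreat or by DESeq2, and 1 had an unadjusted p below 0.05. Tyrobp was higher on day 28 (5900 to 8708 CPM) than on day 12 (1998 to 5532 CPM) in every library, as ranges apart were in 0.979% of genes, with a log2 difference of 0.81 ± 0.28.

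At 18 months, Itgax was the 1 member called on day 12 among 3.01% of genes (2.31% as higher). It lay at 12.51 to 28.57 CPM in naive libraries (median 17.65), at 44.01 to 183.4 CPM on day 12 (median 49.22) and at 21.51 to 118.5 CPM on day 28 (median 54.67). All day 12 libraries were above all naive libraries, which was so of 2.68% of genes in either direction, and the day 28 range overlapped. The log2 fold change was 2.10 ± 0.28 on day 12 (edgeR glmTreat, adjusted p = 0.00458) and 1.86 ± 0.28 on day 28 (adjusted p = 0.0698, not called).

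Cst7 at 18 months lay at 139.2 to 1179 CPM in naive libraries (median 375.7), at 654.8 to 1767 CPM on day 12 (median 1378) and at 536.6 to 2989 CPM on day 28 (median 1702). The naive library at 1179 CPM reached into both injected ranges. With all libraries the log2 differences were 1.88 ± 0.37 (edgeR glmTreat, adjusted p = 0.0713) and 2.03 ± 0.37 (adjusted p = 0.107), and neither was called. Without 18m_Female_Naive replicate 1, that naive library, they were bound to be larger, and were 2.33 (adjusted p = 0.00648) and 2.48 (adjusted p = 0.012). The day 12 difference was also called without 18m_Male_Naive replicate 3 (2.03, adjusted p = 0.0436) or 18m_Female_D12 replicate 2 (1.98, adjusted p = 0.0389).

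No member was called on day 28 at 18 months, where 0.521% of genes were called, although 6 of the 10 had an unadjusted glmTreat p below 0.05. DESeq2 called none of them. The plain quasi-likelihood test, with an estimated log2 fold change beyond 1 also needed for a call, called 4. Apoe lay at 3059 to 7709 CPM in naive libraries (median 6835) and at 20670 to 46410 CPM on day 28 (median 34660), and the ranges were apart, as they were in 2.25% of genes. Its log2 difference was 2.44 ± 0.48 (adjusted p = 0.0745). Spp1 lay at 1.605 to 333 CPM in naive libraries (median 85.52) and at 256.8 to 2915 CPM on day 28 (median 1930), a difference of 3.94 ± 0.86 (adjusted p = 0.0622). Both were called without the 3 day 12 libraries that stood apart (Apoe 2.44, adjusted p = 0.0102, and Spp1 3.94, adjusted p = 0.0404), which enter the estimate of spread but not the difference. Gpnmb was 2.25 ± 0.82 (adjusted p = 0.84) with all libraries and 4.28 ± 0.82 (adjusted p = 0.0204) without 18m_Female_Naive replicate 1, which had the highest naive Gpnmb of that age (904.8 CPM). Leaving out single libraries also brought calls for Apoe (without 18m_Female_D12 replicate 2 or 4, or 18m_Male_D12 replicate 1 or 3, adjusted p 0.0361 to 0.0461), Itgax (without 18m_Male_D12 replicate 3, 18m_Female_D28 replicate 4 or 18m_Male_D28 replicate 1, 0.0343 to 0.0479) and Spp1 (without 18m_Female_Naive replicate 2 or 18m_Female_D12 replicate 3, 0.0192 to 0.0386).

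On day 12 at 18 months Apoe ran from 1518 to 42630 CPM (median 6241), from below the lowest naive library to above the day 28 median, with a log2 difference of 0.93 ± 0.45 from naive. Trem2 lay at 2211 to 3516 CPM in naive libraries and at 778.6 to 2624 CPM on day 12 (median 948.5). Its difference was -0.95 ± 0.21, and the ranges overlapped only through the libraries at 2392 and 2624 CPM, both among those that stood apart. Spp1 differed by 2.84 ± 0.81 (edgeR glmTreat, adjusted p = 0.127), and by 3.97 without 18m_Female_Naive replicate 2 (adjusted p = 0.0294). Igf1 had 0 counts in 18m_Male_D12 replicate 1 and at most 31.52 CPM in the others, against 9.728 to 44 CPM in naive and 37.34 to 89.4 CPM in day 28 libraries. Every day 28 library was above every day 12 library for Igf1, which held for 0.176% of genes. Its difference of 3.13 ± 0.61 between the days was not called (adjusted p = 0.116). In that comparison 0% of genes and no member were called, by glmTreat or DESeq2, and 3 members had an unadjusted p below 0.05. Without the 3 day 12 libraries that stood apart, Igf1 (3.89, adjusted p = 0.00891) and Apoe (2.44, adjusted p = 0.02) were called higher on day 28 than on day 12. Those of this age were chosen after seeing the data and had its highest day 12 levels of Apoe. Leaving them out was bound to raise the Apoe difference. From naive, Igf1 differed by -1.25 ± 0.59 on day 12 (adjusted p = 1) and 1.88 ± 0.56 on day 28 (adjusted p = 0.634), and Gpnmb, at 2.351 to 397.4 CPM on day 12, by -0.96 ± 0.81 (adjusted p = 1). Tyrobp, Lpl and Clec7a were not called at this age. Clec7a lay between 66.21 and 429.3 CPM, and its log2 differences from naive were 0.33 ± 0.24 and 0.50 ± 0.24.

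Within sexes, the older ages gave few calls. At 9 months Cst7 was called in females on both days (3.97 ± 0.51 and 4.49 ± 0.51, with 2.22% and 0.485% of genes called) and in males on day 12 (3.90 ± 0.59, 0.962%), a call lost without 9m_Male_Naive replicate 1 (3.55, edgeR glmTreat, adjusted p = 0.107). No member was called in males on day 28 at 9 months (0.0809% of genes), with 4 at an unadjusted p below 0.05. At 18 months Cst7 (2.66 ± 0.51) and Itgax (2.82 ± 0.39) were called in males on day 12 (2.28%) and none in females (0.0168%), with 1 at an unadjusted p below 0.05. The call of Cst7 was lost without 18m_Male_Naive replicate 1 or 2 or 18m_Male_D12 replicate 2, at 2.43 to 2.53 with adjusted p of 0.0758 to 0.0791. No member was called within either sex on day 28 at 18 months, with 0.042% of genes called in females and 0.126% in males, and 4 and 6 members at an unadjusted p below 0.05. DESeq2 called none in these 4 comparisons without a call.

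The collection day, on which retinas were sorted and cDNA was made, had been removed from the counts by the authors. Within each of the 2 collection days, taken apart, all 16 differences from naive called in both sexes together had the same sign, with differences in mean log2(CPM + 1) from 1.56 to 5.25. The 16 were called on these same libraries, and the values are of counts already adjusted for collection day. Agreement in sign was therefore nearly fixed in advance and is no separate support.

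**Figure D2:**
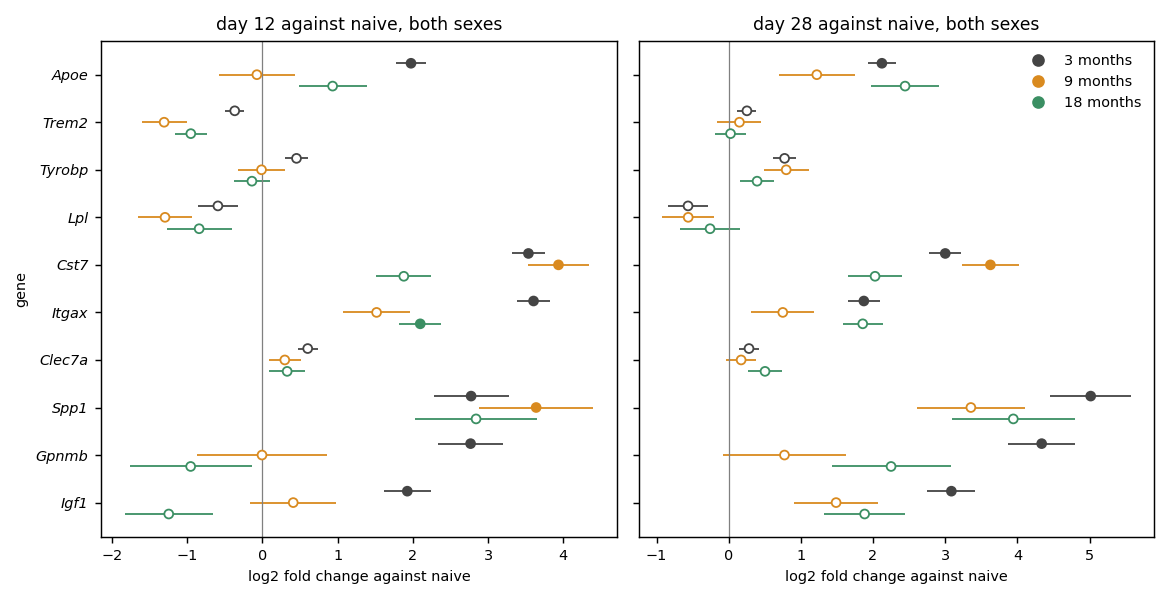
Log2 fold change from naive of each gene at 3, 9 and 18 months, on day 12 and day 28, over both sexes; bars are SE and filled symbols passed the test. Filled genes number 6 at 3 months on each day, 2 on day 12 and 1 on day 28 at 9 months, and 1 and 0 at 18 months. A count of calls depends on the spread as well as on the size of a change. The median log2 change of the 10 genes at 3, 9 and 18 months is 1.95, 0.15 and 0.09 on day 12. On day 28 it is 2.00, 0.78 and 1.87.

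The ages were compared directly in libraries of the same day, here with edgeR's quasi-likelihood test for any difference at an adjusted p below 0.1. Among naive libraries no member differed between 9 and 3 months, where 0% of genes were called, 2 members had an unadjusted p below 0.05 and DESeq2 called none. Cst7 was higher at 18 than at 3 months (139.2 to 1179 against 54.94 to 176.2 CPM, 1.78 ± 0.33, adjusted p = 0.0499), in a comparison that called 0.0651% of genes. The call was lost in 9 of 19 fits that left out 1 library (each without 1 of the 4 naive females of 3 months, 3m_Male_Naive replicate 1 or 3, 18m_Female_Naive replicate 1 or 18m_Male_Naive replicate 3 or 4), with values over all 19 from 1.34 to 2.04.

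On day 12 Spp1 was higher at both older ages over both sexes together. Its medians were 158.9 CPM at 3, 678.5 at 9 and 598 at 18 months, and the ranges overlapped. The difference from 3 months was 1.87 ± 0.46 at 9 months (edgeR quasi-likelihood, adjusted p = 0.0519, 2.01% of genes called) and 2.10 ± 0.46 at 18 months (adjusted p = 0.042, 1.68%). It was lost without 3m_Male_D12 replicate 1, 9m_Female_D12 replicate 2 or 9m_Female_D12 replicate 3 at 9 months (1.78 to 1.93, adjusted p 0.104 to 0.134), and in 5 of 22 fits at 18 months. Those were without 3m_Female_D12 replicate 3, 3m_Male_D12 replicate 1, 18m_Female_D12 replicate 4 and 18m_Male_D12 replicates 1 and 2, at 1.52 to 2.30 with adjusted p from 0.101 to 0.215. In females alone the difference was 4.31 ± 0.71 at 18 months (162.5 to 3707 against 34 to 116 CPM, adjusted p = 0.0133, 0.0341% of genes), called in all 22 fits without 1 library. In females at 9 months it was 2.92 ± 0.69 (adjusted p = 0.0695, 0.656%), and 16 of the 22 fits called it, the other 6 being those that left out 1 of the 4 day 12 females of 3 months or 9m_Female_D12 replicate 2 or 3. In males no member was called at 9 months (0% of genes, with 1 member at an unadjusted p below 0.05 and none by DESeq2). None was called at 18 months either (0% of genes, with 3 members below 0.05 unadjusted and 1 by DESeq2). Male Spp1 lay at 201.9 to 460.5 CPM at 3 months (median 322.9) and at 245.2 to 1026 CPM at 9 months (median 580.9). At 18 months it lay at 116.6 to 598 CPM, with a median of 172.5 that was below that of 3 months.

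Igf1 on day 12 was lower at 18 than at 3 months (0 to 31.52 against 11.03 to 84.98 CPM), by -2.68 ± 0.57 (edgeR quasi-likelihood, adjusted p = 0.0401). The call was lost without 3m_Female_D12 replicate 3, 3m_Male_D12 replicate 1, 18m_Female_D12 replicate 4 or 18m_Male_D12 replicate 1 (-2.70 to -2.31, adjusted p 0.101 to 0.135). It was -1.71 (adjusted p = 0.154) when the library with 2 day entries was placed at day 12. Among day 28 libraries of both sexes no member was called between ages by the quasi-likelihood test (0% of genes at 9 and 0.22% at 18 months against 3 months), while 2 and 4 members had an unadjusted p below 0.05 and DESeq2 called 1 in each. Within sexes that test called none at 18 months (0.118% of genes in females, 0.00845% in males), with 3 members in each at an unadjusted p below 0.05. DESeq2 called 1 in females and 0 in males. Female Cst7 lay at 472.1 to 1198 CPM at 3 and 1702 to 2989 CPM at 18 months. Male Cst7 lay at 828.4 to 963.8 and 536.6 to 1939 CPM. At 9 months none was called in either sex (0% of genes), with 2 in each below 0.05 unadjusted.

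The 3 day 12 libraries that stood apart weighed on these comparisons. These libraries were chosen after seeing the data and had the highest Apoe and Trem2 of their age and day. Leaving them out was bound to lower Apoe and Trem2 at the older ages, so the values without them are no separate support. Without them Apoe was lower on day 12 at 9 months (-2.10 ± 0.43, edgeR quasi-likelihood, adjusted p = 0.0043) and at 18 months (-1.96 ± 0.47, adjusted p = 0.0134) than at 3 months. Trem2 was then lower at 9 months (-1.03 ± 0.23, adjusted p = 0.00924), and Gpnmb (-2.09 ± 0.48, adjusted p = 0.0103), Igf1 (-3.48 ± 0.61, adjusted p = 0.000707) and Itgax (-0.88 ± 0.28, adjusted p = 0.0888) at 18 months. With all libraries Apoe and Trem2 were not called between ages on any day.

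Whether the change from naive itself differed with age was tested as an interaction. For day 12 against naive at 18 against 3 months, 4 members were called among 0.853% of genes (0.363% as lower), all with a lower log2 change at 18 than at 3 months: Cst7 (-1.65 ± 0.42, edgeR quasi-likelihood, adjusted p = 0.0762), Itgax (-1.50 ± 0.35, adjusted p = 0.0573), Gpnmb (-3.74 ± 0.98, adjusted p = 0.0847) and Igf1 (-3.19 ± 0.68, adjusted p = 0.0573). At 9 against 3 months Itgax was called (-2.08 ± 0.47, adjusted p = 0.0988, 0.0916% of genes, 0.0153% as lower). In females the interaction was called at 9 months for Apoe (-2.76 ± 0.73, adjusted p = 0.082), Trem2 (-1.76 ± 0.42, adjusted p = 0.0558) and Itgax (-2.94 ± 0.65, adjusted p = 0.0297), with 0.771% of genes called, and at 18 months for Cst7 (-2.10 ± 0.58, adjusted p = 0.0692) and Itgax (-2.19 ± 0.47, adjusted p = 0.0347), with 2.13%. In males no gene was called, with 1 member at an unadjusted p below 0.05 at 9 months and 3 at 18 months. No gene was called for day 28 in females, males or both together, where 3 members at 9 months and 2 at 18 months had an unadjusted p below 0.05 over both sexes. DESeq2 called no member in males or on day 28, and on day 12 called 1 and 4 members at 9 and 18 months over both sexes and 6 and 3 in females.

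These interactions rested on few libraries. Without the 2 naive libraries that stood apart, 1 of the 5 calls over both sexes remained, Itgax at 18 months (-1.60 ± 0.35, edgeR quasi-likelihood, adjusted p = 0.0911), and none of the 5 in females. Without the 3 day 12 libraries there were 9 calls over both sexes and 8 in females, among them Apoe at 9 months (-2.61 ± 0.45, adjusted p = 0.00243) and 18 months (-1.96 ± 0.43, adjusted p = 0.0119) and Trem2 at 18 months (-0.96 ± 0.20, adjusted p = 0.00833). Those 3 libraries were the highest in Apoe and Trem2 of their age and day. Leaving them out was bound to lower these Apoe and Trem2 interactions, which are no separate support. Leaving out 1 library at a time gave 0 to 7 calls over both sexes and 2 to 10 within sexes. The call of Itgax at 9 months was kept in 10 of 41 such fits, and those at 18 months in 30 (Cst7), 37 (Itgax), 27 (Gpnmb) and 39 (Igf1) of 43. In females it was kept in 32 (Apoe), 36 (Trem2) and 40 (Itgax) of 41 at 9 months, and in 38 (Cst7) and 41 (Itgax) of 43 at 18 months. Without 9m_Female_Naive replicate 1 none of the 4 interactions called at 9 months was called. Itgax was then -1.25 over both sexes and -1.28 in females, Apoe -1.89 and Trem2 -1.71. Without 18m_Female_Naive replicate 1 the calls of Cst7 (-1.24), Gpnmb (-1.73) and Igf1 (-2.80) and, in females, Cst7 (-1.24) and Itgax (-2.35) were lost. Of these 9 differences Trem2, Igf1 and Itgax in females at 18 months changed least.

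Other genes of the same programme, 30 listed beside the members, moved in part with them. On day 12 at 3 months 12 of 29 tested rose and 2 fell, with a median log2 change of 1.27 against -0.02 over all genes. Lilrb4a, an inhibitory immunoglobulin-like receptor, rose by 2.92 ± 0.21 (edgeR glmTreat, adjusted p = 2.74e-09), Cybb, the NADPH oxidase subunit, by 2.79 ± 0.20 (adjusted p = 5.24e-09), and Axl, a receptor for apoptotic cells, by 2.69 ± 0.21 (adjusted p = 2.19e-08). On day 28 4 of 29 rose and none fell (median 0.92 against -0.0049), led by Fabp5, a fatty acid binding protein, at 3.50 ± 0.36 (adjusted p = 3.03e-06), Lgals3, a galectin, at 3.30 ± 0.41 (adjusted p = 5.62e-05), and Lilrb4a at 2.04 ± 0.21 (adjusted p = 0.00028). At 9 months 7 rose and 3 fell of 30 on day 12 and none was called on day 28, with 8 at an unadjusted p below 0.05 and none by DESeq2. At 18 months 5 rose and 1 fell on day 12 and 2 rose on day 28, Fabp5 (3.32 ± 0.43, adjusted p = 0.00113) and Lilrb4a (2.30 ± 0.37, adjusted p = 0.0334).

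The homeostatic list moved the other way on day 12. At 3 months 8 of 14 genes fell and none rose (median -1.62 against -0.02), with P2ry12, the purinergic receptor, at -2.42 ± 0.16 (edgeR glmTreat, adjusted p = 9.11e-09), Gpr34, a lysophospholipid receptor, at -2.29 ± 0.18 (adjusted p = 2.09e-07), and Cst3, the protease inhibitor cystatin C, at -2.21 ± 0.17 (adjusted p = 2.62e-07). On day 28 Fcrls alone was called, at -1.74 ± 0.25 (adjusted p = 0.0478). At 9 and 18 months 7 and 4 of the 14 fell on day 12. None was called on day 28 by glmTreat or DESeq2 at those ages, and 1 at each had an unadjusted p below 0.05.

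Of 11 genes that signal from or cleave TREM2 and CLEC7A, such as Syk, Plcg2 and Adam10, none was called by glmTreat or DESeq2 or had an unadjusted p below 0.05 on either day at any age, and their medians lay between -0.25 and 0.21. Of 13 tested receptors and anchors for APOE, osteopontin, IGF1, LPL and GPNMB, 1 rose and 2 fell on day 12 at 3 months and none was called on day 28 by either tool, with 1 at an unadjusted p below 0.05. Cd44, a receptor for osteopontin, rose by 3.10 ± 0.33 (edgeR glmTreat, adjusted p = 1.92e-06), and Itgb3, an integrin subunit that binds osteopontin, changed by -2.31 ± 0.37 (adjusted p = 0.00405). At 9 months Cd44 (3.18 ± 0.44, adjusted p = 0.00032) and Itgb3 (-2.59 ± 0.43, adjusted p = 0.00554) were again the 2 called on day 12, and at 18 months Itgb3 alone (-2.16 ± 0.36, adjusted p = 0.0174).

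Markers of other cells were called beside them on day 12 at 3 months. Of 6 T cell markers 5 rose, of 4 monocyte markers 2 rose and 1 fell, all 4 border macrophage markers fell, and 1 each of the Mueller glia and pigment cell markers rose. None of the tested B cell, dendritic, neutrophil or photoreceptor markers was called by glmTreat or DESeq2 or had an unadjusted p below 0.05. On day 28 3 T cell markers rose, and 1 monocyte and 2 border macrophage markers fell. Cst7 is also expressed by cytotoxic lymphocytes and Itgax by dendritic cells. The 5 dendritic cell markers summed to medians of 8.31, 9.81 and 5.448 CPM in naive, day 12 and day 28 libraries.

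**Figure D3:**
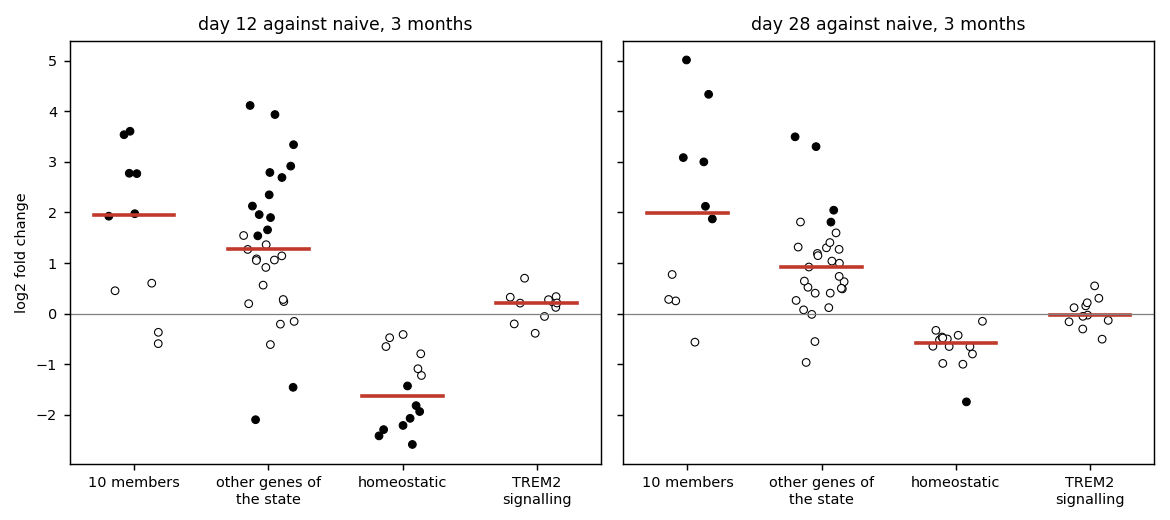
Log2 fold change from naive at 3 months of the members and of every tested gene in 3 lists, on day 12 and day 28; filled points passed the test and the red line is the list's median. On day 12 the other disease-associated genes have a median of 1.27 and the homeostatic genes one of -1.62.

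Variation between libraries of the same age, sex and day was described by the correlation of log2 CPM after removal of each group's mean. Of 45 pairs of members over 62 libraries, 34 had a positive Pearson's r, and 6 had a permutation p that remained below 0.05 for r and for Spearman's rho after Benjamini-Hochberg adjustment over the 45. Gpnmb and Igf1 varied together (r = 0.66, rho = 0.684, adjusted p = 0.00045 for both, from an unadjusted p of 1e-05, the smallest that 100000 permutations can give), with r = 0.54 after the 2 libraries farthest out in Gpnmb were left out. Their r was 0.699 within naive, 0.742 within day 12 and 0.805 within day 28 libraries, and 0.411 within naive libraries without the 2 that stood apart. Lpl and Cst7 varied in opposite directions (r = -0.607, rho = -0.543, permutation adjusted p = 0.00157 and 0.00495, r = -0.537 without 2), with -0.632, -0.67 and -0.546 within naive, day 12 and day 28 libraries and -0.325 within naive libraries without those 2. Itgax and Clec7a had r = 0.472 and rho = 0.453 (permutation adjusted p = 0.0036 and 0.00928, r = 0.401 without 2), and Apoe with Gpnmb r = 0.469 and rho = 0.506 (0.00432 and 0.00495, r = 0.472 without 2). Apoe and Igf1 had r = 0.616 and rho = 0.629 (0.0099 and 0.0009, r = 0.646 without 2).

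Apoe and Trem2 had the highest r, 0.748, with rho = 0.521 (permutation adjusted p = 0.0027 and 0.00928), and this value came from the day 12 libraries. Within day 12 r was 0.916 over 22 libraries, within naive 0.092 over 19 and within day 28 0.181 over 21. The 3 day 12 libraries that stood apart had Apoe at 28570, 24540 and 42630 CPM and Trem2 at 2381, 2624 and 2392 CPM, at the top of both genes for their age and day. Without them r within day 12 was 0.832 over 19 libraries. Without these and the 2 naive libraries, 7 pairs passed over 57 libraries, 4 of them among the 6 above (Gpnmb with Igf1, Lpl with Cst7, Itgax with Clec7a and Apoe with Gpnmb), and 3 were others: Clec7a with Gpnmb (r = 0.518), Cst7 with Igf1 (r = 0.38) and Spp1 with Igf1 (r = 0.368). Apoe with Trem2 was then 0.515 with a permutation adjusted p of 0.0498 for r and 0.0903 for rho, and no longer passed both. The libraries share sorting and amplification within a collection day.

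**Figure D4:**
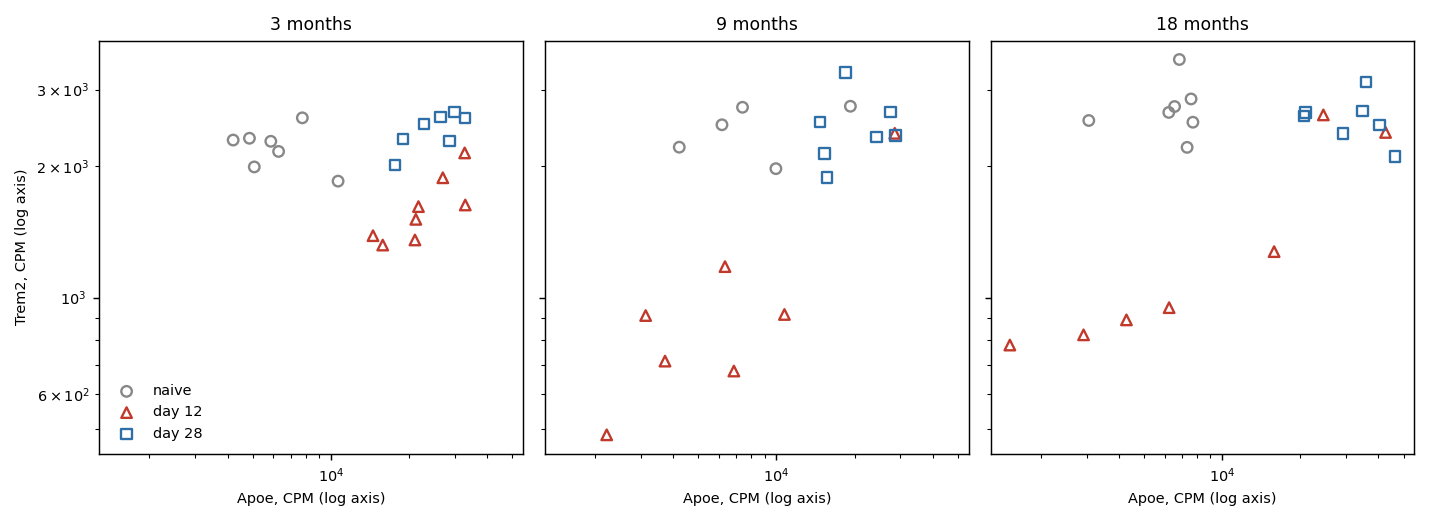
CPM of Trem2 against CPM of Apoe in the 62 libraries, with circles for naive, triangles for day 12 and squares for day 28. On day 12 Trem2 ranges from 484.7 to 2624 CPM and is higher in libraries with more Apoe, whereas the naive and day 28 libraries overlap in Trem2 at different Apoe.

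**Figure D5:**
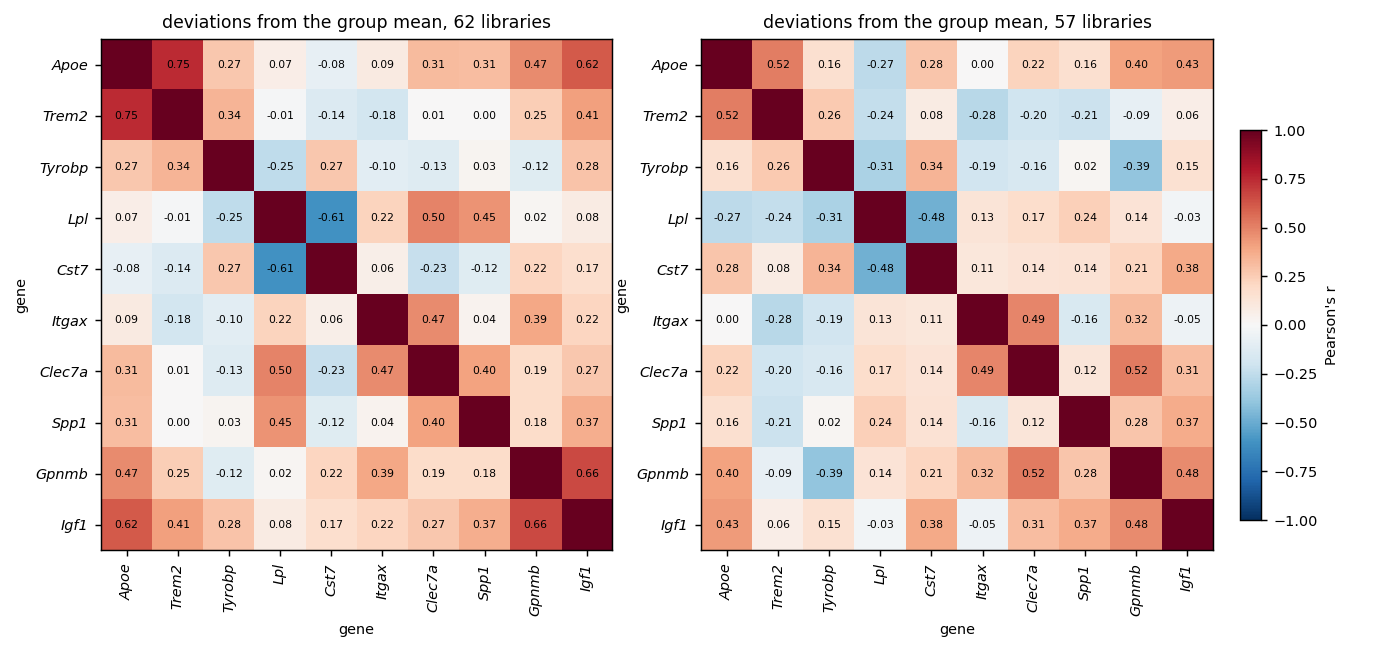
Pearson's r between the members after removal of group means, over all 62 libraries and over the 57 left without the 5 libraries that stood apart. Gpnmb with Igf1 is 0.66 and 0.475, and Apoe with Trem2 0.748 and 0.515.

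Over the 18 group means of age, sex and day, the genes whose pattern was most like each member's were sought among 7922 genes with a mean of at least 10 CPM, and the r is a description over 18 points that share libraries and days. Igf1 was most like 2 other members, Gpnmb (r = 0.861) and Apoe (0.812). Trem2 was most like Cd9, a tetraspanin of the disease-associated programme (0.956), and Tyrobp most like Hcst, the adaptor DAP10 (0.915). Cst7 was closest to the chemokine Cxcl13 (0.959) and Nkg7 (0.949), and Itgax to Lgals3bp (0.955) and the interferon-induced gene Oas2 (0.954). Apoe was closest to the lysozyme gene Lyz2 (0.876), Lpl to Serpine2 (0.86), Clec7a to Plek (0.844), Spp1 to Bex3 (0.895) and Gpnmb to Flt1 (0.924).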

How the data were processed

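The 64 libraries were of sorted retinal microglia, made from 600 cells of 1 retina each with SMART-Seq and Nextera XT kits and sequenced with single-end reads, and 62 were used. Per the labels, the authors demultiplexed with bcl2fastq 2.20, aligned to mm10 with STAR 2.7.8a and worked in R 4.2.2. The authors counted reads per gene with featureCounts on the UCSC refGene annotation, with the strand setting not given in the sources used here. They then adjusted the counts for collection day with ComBat_seq, and both count tables were deposited, as whole-number counts.

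Here the batch-corrected counts were used as deposited, with TMM factors, filterByExpr and edgeR 4.0.16 in R 4.3.3 (glmQLFit with 1 mean per sex and day, or per sex and age). Within an age, days were compared by glmTreat, with 1 as the log2 fold change to exceed, at an adjusted p of 0.05. Sexes, ages and interactions were compared by the quasi-likelihood test at 0.1. All p-values were Benjamini-Hochberg adjusted over all genes of a fit. Correlations used log2 CPM with a prior count of 2 and 100000 two-sided permutations within groups (scipy 1.17.1, numpy 2.4.6, pandas 2.3.3). The fits were tested on simulated counts. The alternatives were DESeq2 1.42.0 and its size factors, uncorrected counts (collection day in the model or no batch term), all genes kept whatever their count, a replicate block, 1 fit of all libraries, the plain quasi-likelihood test, the library with 2 day entries placed at day 12, the left-out 18-month library added, and leaving out each library in turn. In the plain quasi-likelihood test of days, which tests for any difference, a call also needed an estimated log2 fold change beyond 1. The sets of 2 and of 3 libraries left out together were chosen after seeing the data. Replicates are separate retinas, and none of the 79 pairs of libraries within groups held identical counts. Replicate numbers did not pair libraries (mean r of deviations -0.01151 over 464 same-numbered pairs and 0.004572 over 1348 others).

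The 10 genes and all lists were chosen with earlier results of these data known. The rule named all members in every comparison, of which those not called are given in part as counts, of each list up to 3 called genes with the smallest p, and per member the most alike genes over group means among genes of at least 10 mean CPM. Totals of 1468478 to 9836173 counts per library put 3 counts at 0.305 to 2.043 CPM, a limit that covers counting error only. Some genes of the lists are not reported here.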

Additional observations from a re-analysis of the deposited data

Results flagged for a closer look

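Of 90 groups of 4 libraries (a member in 1 age, sex and day), 8 held a library that stood apart from the other 3 by Dixon's criterion at 95%. Chance meets that criterion in about 1 in 20 groups of independent values with a normal spread. These were untransformed CPM of members that share libraries, so the rate by chance is not known here. The library 9m_Male_D12 replicate 2 had Apoe at 28570 CPM, against 3130 to 6330 CPM in the other 3, and Igf1 at 46.49 CPM, against 15.68 to 17.37 CPM. The library 3m_Female_D28 replicate 3 had Spp1 at 2378 CPM, against 258.9 to 510.9 CPM, and Clec7a at 255.4 CPM, against 228.4 to 230.2 CPM. Gpnmb stood apart in 3 libraries. It was 61.54 CPM in 3m_Female_Naive replicate 4, against 4.289 to 8.609 CPM, and 364 CPM in 3m_Female_D12 replicate 3, against 50.21 to 81.62 CPM. In 18m_Male_D28 replicate 3 it was 551.5 CPM, against 331.9 to 367.2 CPM. Clec7a was 387.2 CPM in 18m_Male_D28 replicate 2, against 294.8 to 309.9 CPM.

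The change from naive on day 12 differed with age in 10 interactions by edgeR's quasi-likelihood test. At 9 against 3 months these were Itgax over both sexes (-2.08 on the log2 scale) and, in females, Apoe (-2.76), Itgax (-2.94) and Trem2 (-1.76). At 18 against 3 months they were Cst7 (-1.65), Gpnmb (-3.74), Igf1 (-3.19) and Itgax (-1.50) over both sexes and, in females, Cst7 (-2.10) and Itgax (-2.19). Females were not shown to differ from males in these, since that difference was not tested.

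The 2 libraries that entered no comparison, and whose sex-linked genes went against their labels, had members above every naive library of their labelled age in the same table. In uncorrected counts Xist was 255.2 CPM in 9m_Male_D28 replicate 1 and 0 in 18m_Female_D28 replicate 1. The summed Y chromosome genes were 0 and 387.5 CPM. Whether the age labels of these libraries hold was not tested. In 18m_Female_D28 replicate 1, batch-corrected, these were Cst7 (1460 CPM, naive at most 1179), Itgax (35.27, at most 28.57) and Spp1 (418.3, at most 333). The same library was below the naive range for Apoe (1789 CPM), Trem2 (916.5), Tyrobp (3557) and Igf1 (3.858). In 9m_Male_D28 replicate 1, in uncorrected counts, they were Apoe (53360 CPM, naive at most 21690), Cst7 (1720, at most 119), Clec7a (442.1, at most 312) and Spp1 (935.1, at most 393.8).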

How the results depend on the processing

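Of 57 called member results 20 kept direction and call in every setting, and of their 1939 alternative values 241 lost the call and 0 changed direction. Counts below are of members called, with D12 and D28 for the days, in both sexes unless stated, and the cause of a move was not tested. Counts over all genes in these settings are given below for few comparisons only. A move in a count is therefore not read as particular to the members. With all 62 libraries in one fit the counts were 2 for D12 and 0 for D28 against D12 at 3 months, 3 for D12, 3 for D28 and 1 between days at 18 months, 2 at 9 and 1 at 18 against 3 months on D12, 12 (from 24) for days within sexes, 1 for male against female, 5 for ages within sexes and 2 for the interaction of age and day. DESeq2 gave 0 between days at 3 months, 2 at 9 against 3 months on D12, 1 at each older age on D28, 2 for male against female, and 9 each for ages and for age and day within sexes. With no filter on low counts there were 3 between days at 3 months, 2 for D28 at 9 months, and 3 for D12, 4 for D28 and 2 between days at 18 months. That setting also gave 1 and 3 at 9 and 18 against 3 months in naive, 2 and 4 on D12 and 3 and 3 on D28 libraries, 5 for sex and day, 7 for male against female, 23 for ages within sexes, and 11 and 16 for age and day over both sexes and within them. Uncorrected counts with no batch term gave 0 between days at 3 months, 0 at 18 against 3 months in naive libraries, 0 at either age on D12, 1 for ages within sexes and 0 for both families of age and day. With collection day in the model they gave 0 between days at 3 months, and 2 and 3 for age and day. The plain quasi-likelihood test gave 4 between days at 3 months, 5 for D12, 2 for D28 and 1 between days at 9 months, 3, 4 and 1 at 18 months and 39 for days within sexes. The replicate block gave 0 at 18 against 3 months in naive libraries (1 without it), and 3 for each family of age and day (5 without it). It changed no other count of members, but in males at 3 months Gpnmb on D12 and Apoe on D28 lost their calls under it. The numbers do not pair libraries. With the library of 2 day entries at day 12 the counts were 0 at 9 against 3 months on D12, 1 at 18 against 3 months on D28 and 3 for age and day, and the uncalled Gpnmb difference of 18 against 3 months on D12 turned to 0.0099. Without the 2 naive libraries that stood apart there were 3 for D28 at 9 months, 2 for D12 and 2 for D28 at 18 months, 1 for male against female, and 1 and 0 for age and day. Without the 3 day 12 libraries there were 2 each for D12, D28 and between days at 18 months, 3 and 5 at 9 and 18 against 3 months on D12, 9 for ages within sexes, and 9 and 8 for age and day. Correlated pairs were 11 in uncorrected counts (6 as reported).

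Leaving out 1 library gave 5 to 6 calls for D12, 6 to 6 for D28 and 0 to 1 between days at 3 months, 1 to 3, 1 to 3 and 0 to 0 at 9 months, and 1 to 2, 0 to 2 and 0 to 0 at 18 months. At 9 and 18 against 3 months it gave 0 to 0 and 0 to 1 in naive, 0 to 3 and 0 to 3 on D12 and 0 to 0 and 0 to 1 on D28 libraries. It gave 19 to 27 for days within sexes, 0 to 0 for sex and day, 0 to 1 for male against female, 1 to 5 for ages within sexes, and 0 to 7 and 2 to 10 for age and day. The uncalled Gpnmb difference of 9 against 3 months in naive libraries ran from -1.13, without 9m_Male_Naive replicate 2, to 3.41 when 1 library was left out. The first leaves that group with 1 library, which is assumed to vary like the other groups. Over all genes on day 12 at 3 months 557 were called by glmTreat, 414 by DESeq2 and 1395 by the plain quasi-likelihood test, and on day 28 120, 91 and 403, with 216 without the filter and 67 in the fit of all libraries. Igf1 had 0 counts in 18m_Male_D12 replicate 1, where 3 counts are 0.3358 CPM, so a lower level there could not be seen at this depth.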
